A study of Mus musculus with 4 samples.

Results

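Transcripts of platelets and of megakaryocytes, the bone marrow cells that shed platelets, were followed through 4 RNA libraries of sorted blood T cells. The set comprised 10 genes, PPBP, PF4, ITGA2B, ITGB3, GP1BA, GP9, TUBB1, GNG11, TREML1 and ITGB5, out of 59490 genes used, and was taken by gene symbol from each count table. The 10 genes were chosen from their measured levels in these same 4 libraries, so their levels and ratios are given as a description, with no test. Of the 10, 9 are genes best known from platelets, whereas ITGB5 is also made by epithelial, stromal and myeloid cells.

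The study sequenced RNA from CD8+ T cells with high CD11a, an integrin chain of antigen-experienced T cells, sorted from the peripheral blood of patients who received an antibody against PD-1 every 3 weeks, with 4 doses to a cycle. PD-1 is an inhibitory receptor of T cells. Each of the 4 groups (responder or non-responder, sampled before or after therapy) was 1 library. Whether any libraries share a patient is not stated, and the names of the earlier 2 libraries alone bear the tag PD-1pos, so a patient, a gate and the time of sampling cannot be told apart. One protocol field places all sampling after a cycle of therapy, and the group field, which names before and after, was followed. The organism field names mouse, whereas the tables hold human genes on the build hg38.

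Platelets have no nucleus and carry RNA inherited from the megakaryocyte. They circulate in large numbers, adhere to leukocytes and are a common admixture of sorted blood cells. Their granules release chemokines, their surface binds von Willebrand factor through the glycoprotein Ib-IX complex and fibrinogen through the integrin alpha-IIb beta-3, and a platelet form of tubulin keeps their disc shape. These proteins are not typical products of T cells.

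The libraries held between 65500644 and 129773591 counts, and 26352 to 30272 genes had a count. Levels are CPM, counts per 1000000 of the effective library size. TMM scaling set that size so that the bulk of genes agree between libraries, and intervals are exact 95% intervals that cover counting error only. A count of 0 allows up to 3 counts, which is 0.036 CPM (responder) and 0.046 CPM (non-responder) before therapy and 0.0235 and 0.0268 CPM after it. Folds given as at least put the 0 at this floor and ignore counting error in the other library. Their exact intervals reach smaller folds. Markers of the sort were abundant: CD8A lay between 865 and 1560 CPM, CD3E between 556 and 751 CPM, ITGAL, the CD11a gene, between 516 and 765 CPM, and PTPRC, the leukocyte antigen CD45, between 1230 and 3920 CPM. The 10 platelet genes together made up 37 CPM (3077 counts) in the responder library and 68.3 CPM (4453 counts) in the non-responder one before therapy, and 21.2 CPM (2697 counts) and 202 CPM (22630 counts) after therapy. In bulk RNA, fewer cells of a type and less RNA per cell cannot be told apart.

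The non-responder library after therapy stood above the others for most of the set. It held the highest level of 9 of the 10 genes, an order found in 23.5% of 18824 genes with at least 1 CPM in any library. Both responder libraries lay below both non-responder libraries for PPBP, PF4, GP9, TUBB1 and GNG11, 5 of the 10 genes, an order found in 16.9% of those genes. GP1BA, ITGA2B, ITGB3, TREML1 and ITGB5 did not keep that order, and each was lower in the non-responder library before therapy than in the responder library of that time, for GP1BA by less than counting error.

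**Figure D1:**
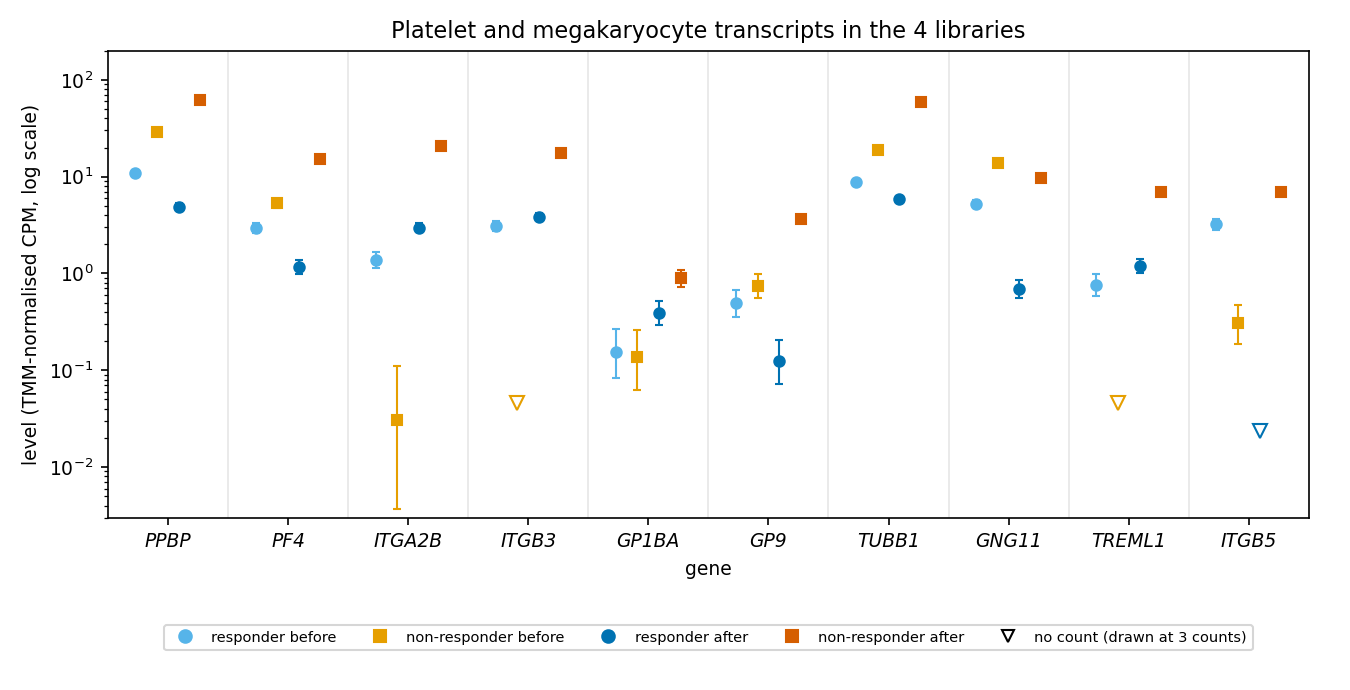
Level of each of the 10 genes in TMM-normalised CPM (log scale) in the 4 libraries, with bars for the exact 95% counting interval and open triangles for libraries with no count, drawn at 3 counts. The orange-red squares of the non-responder library after therapy are highest for every gene except GNG11, and 2 triangles of that response group before therapy mark the zeros of ITGB3 and TREML1.

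The granule chemokines PPBP and PF4 were below the non-responder level in both responder libraries. PPBP (ENSG00000163736, chromosome 4: 73987038 to 73988197), the precursor of the neutrophil-attracting chemokine CXCL7, measured 10.8 CPM in the responder library from before therapy against 29.1 CPM in its non-responder counterpart, and 4.91 against 61.4 CPM once therapy had been given. Its log2 ratio of responder to non-responder was -1.43 (interval -1.55 to -1.31) before and -3.64 (interval -3.77 to -3.53) after therapy, the latter a 12.5-fold lower level. PF4 (ENSG00000163737, chromosome 4: 73981077 to 73982124), platelet factor 4, which binds heparin, stood at 2.97 against 5.31 CPM before therapy, then at 1.17 against 15.2 CPM. The log2 ratios of PF4 were -0.84 (interval -1.08 to -0.60) and -3.70 (interval -3.96 to -3.46). Across time, in the responder libraries PPBP was 2.2-fold and PF4 2.53-fold lower after therapy, whereas in the non-responder libraries they were 2.11-fold and 2.87-fold higher.

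The fibrinogen receptor genes went the other way before therapy. ITGA2B (ENSG00000005961, chromosome 17: 44372180 to 44389505), the alpha-IIb chain, had 115 counts (1.38 CPM) in the responder and 2 counts (0.0307 CPM) in the non-responder library before therapy, a log2 ratio of 5.27 with a wide interval of 3.61 to 8.56. After therapy the levels were 2.98 CPM (responder) and 20.6 CPM (non-responder), a log2 ratio of -2.78 (interval -2.95 to -2.63). ITGB3 (ENSG00000259207, chromosome 17: 47253846 to 47311816), the beta-3 chain, had 257 counts (3.09 CPM) in the responder and no count in the non-responder before therapy, at least 67.1-fold higher on this entry against the floor of 3 counts. After therapy ITGB3 stood at 3.87 against 17.5 CPM, a log2 ratio of -2.18 (interval -2.32 to -2.04). Both chains of this receptor were thus higher in the responder before therapy and lower after therapy.

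The symbol ITGB3 stands on a second, overlapping entry (ENSG00000259753, chromosome 17: 47253897 to 47344292) that runs past the end of the gene, and reads in the shared stretch cannot be told apart. That entry measured 3.78 against 1.12 CPM at the earlier and 3.50 against 11.8 CPM at the later time, and thus had 73 counts in the library where ITGB3 itself had none. Its log2 ratios were 1.75 (interval 1.39 to 2.14), or 3.37-fold higher, and -1.76 (interval -1.92 to -1.60), the same directions as those of the first entry, so the fold of at least 67.1 is no bound for the gene as a whole.

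The von Willebrand factor receptor genes had few counts before therapy and were lower in the responder after it. GP9 (ENSG00000169704, chromosome 3: 129060767 to 129062406), glycoprotein IX, measured 0.492 CPM (responder) and 0.751 CPM (non-responder) before therapy, and the log2 ratio of -0.60 had an interval from -1.24 to 0.02, so counting error does not separate the pair. After therapy GP9 stood at 0.126 against 3.65 CPM, or 16 against 409 counts, a log2 ratio of -4.81 (interval -5.68 to -4.15). GP1BA (ENSG00000185245, chromosome 17: 4932297 to 4935030), the chain that binds von Willebrand factor, had 13 and 9 counts before therapy, 0.156 and 0.138 CPM, again not separated (log2 ratio 0.17, interval -1.16 to 1.58). After therapy it had 50 and 100 counts, 0.392 against 0.893 CPM, a log2 ratio of -1.18 (interval -1.71 to -0.68). GP1BA stayed under 1 CPM in all 4 libraries.

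TUBB1 (ENSG00000101162, chromosome 20: 59019254 to 59026654), the beta-1 tubulin of the platelet's marginal band, followed PPBP closely. It measured 8.84 CPM (responder) and 18.9 CPM (non-responder) before therapy, and 5.82 and 59.4 CPM after therapy, where it was 10.2-fold lower in the responder (log2 ratio -3.35, interval -3.46 to -3.24). GNG11 (ENSG00000127920, chromosome 7: 93921699 to 93928610), a gamma subunit of heterotrimeric G proteins, stood at 5.24 against 13.7 CPM before therapy, then at 0.699 against 9.61 CPM. It alone of the 10 was highest in the non-responder library before therapy, and its log2 ratio of after to before in the non-responder libraries was -0.51 (interval -0.64 to -0.38). TREML1 (ENSG00000161911, chromosome 6: 41149342 to 41154337), a receptor stored in the alpha granules and exposed on activated platelets, resembled the integrin chains. It had 64 counts (0.769 CPM) in the responder and none in the non-responder before therapy, at least 16.7-fold higher, and 1.20 against 6.99 CPM after therapy, a log2 ratio of -2.54 (interval -2.80 to -2.29).

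ITGB5 (ENSG00000082781, chromosome 3: 124761948 to 124901418), the beta-5 chain of a vitronectin receptor, had the widest difference of the 10 between its response ratios before and after therapy, -11.56 on the log2 scale with counts of 0 set at the floor of 3 counts. It stood at 3.21 CPM (267 counts) in the responder library and 0.307 CPM (20 counts) in the non-responder one before therapy, a log2 ratio of 3.36 (interval 2.73 to 4.12). After therapy the responder library had no count against 774 counts (6.92 CPM) in the non-responder, at least 294-fold lower. The responder library before therapy also held epithelial markers, with a summed level of 163 CPM over 7 genes against 2.50 to 11.3 CPM in the other libraries, among them KRT19 at 55.5 CPM, KRT18 at 42.4 CPM and KRT8 at 41.2 CPM. The part of that RNA in the ITGB5 value was not tested.

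How often genes of like level had no count varied with the pair. Of 1882 genes with 2 to 4 CPM in the responder library before therapy, the range that holds ITGB3 and ITGB5, 5.58% were at 0 in the non-responder library of that time and 2.98% in the responder library after therapy. Of 2412 genes with 0.5 to 1 CPM, the range of TREML1, 19.2% were at 0 in that earlier non-responder library. Of 1973 genes with 5 to 10 CPM in the non-responder library after therapy, which holds ITGB5, 0.355% had no count in the responder library after therapy, and 2.84% of the same genes, whose range also holds TREML1, were at 0 in the earlier non-responder library. Of 2225 genes with 10 to 20 CPM, the range of ITGB3, 1.48% were at 0 in the latter. With 1 ng of input RNA per library, a transcript that was not captured also gives a 0.

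**Figure D2:**
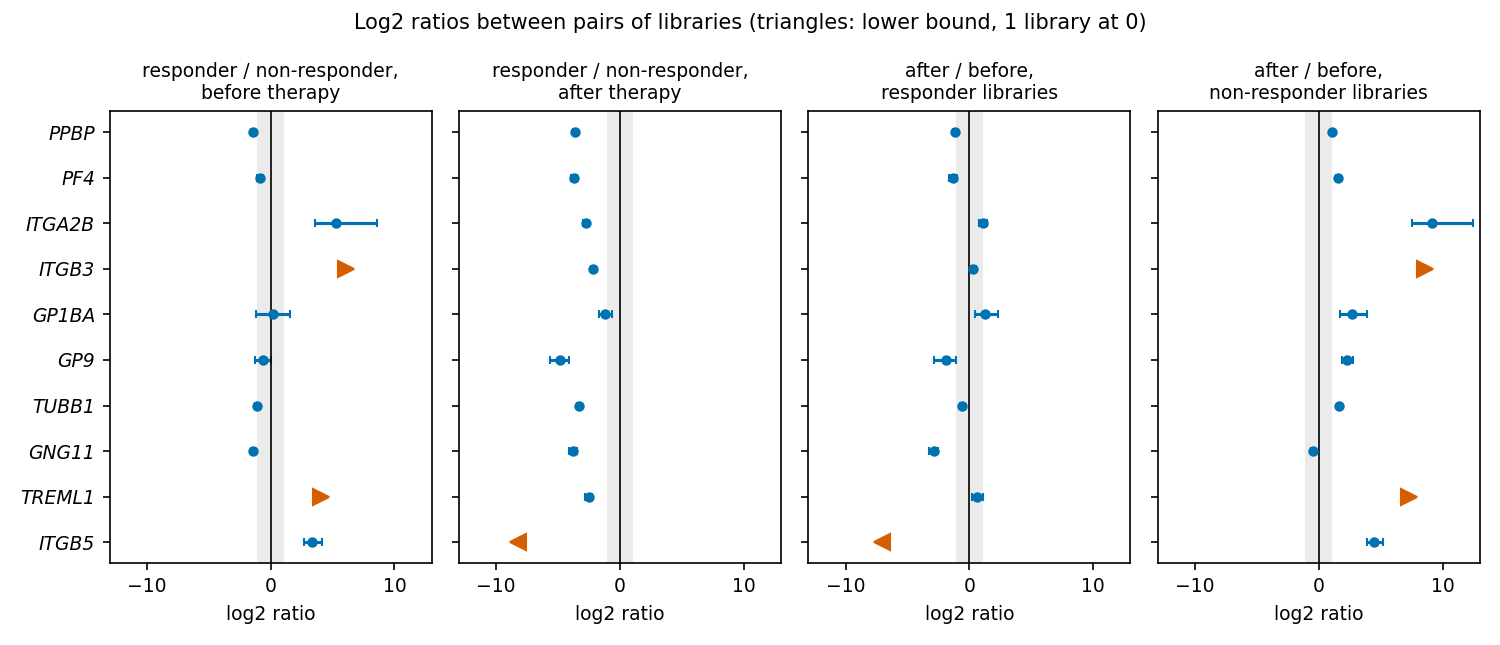
Log2 ratios (horizontal axis) of the 10 genes in 4 pairs of libraries, with exact 95% counting intervals, a grey band for less than 2-fold and triangles at the bound where 1 library had no count. All 10 genes lie left of 0 for responder against non-responder after therapy, whereas before therapy ITGA2B, ITGB3, TREML1 and ITGB5 lie to the right. GP1BA also lies just right of 0 before therapy, at 0.17, with an interval that spans 0.

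As a set, the 10 genes had a median log2 ratio of responder to non-responder of -0.22 before and -3.50 after therapy, or, over the members that reached 1 CPM in 1 or both of the libraries, -0.84 (7 genes) and -3.64 (9 genes). All genes that reached 1 CPM had medians of 0.04 and 0.02. Before therapy, 3 of the 10 (ITGA2B, ITGB3 and ITGB5) were at least 2-fold higher and 3 (PPBP, TUBB1 and GNG11) at least 2-fold lower in the responder, 3 were under 1 CPM in both libraries, and PF4 was within 2-fold. Over all 17592 genes of that pair, 15.8% were at least 2-fold higher and 14% at least 2-fold lower. After therapy, 9 of the 10 were at least 2-fold lower and 0 higher, with GP1BA under 1 CPM, against 13.9% lower and 7.99% higher of 17169 genes.

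Responder and non-responder libraries were next compared across time, each with its own pair. In the non-responder libraries 8 of the 10 genes were at least 2-fold higher after therapy and 0 lower, with a median log2 ratio of 2.46, against 19.1% higher and 14.1% lower of 17892 genes. With upper quartile scaling 7 of the 10 were higher, as PPBP then had a log2 ratio of 0.89, under 2-fold. ITGA2B was 574-fold higher (log2 ratio 9.17, interval 7.54 to 12.44), and TREML1 at least 152-fold higher against the floor of 3 counts. ITGB3 went from 0 to 17.5 CPM on the entry used, but the overlapping entry of that symbol was 10.5-fold higher, so no bound is given for the gene. In the responder libraries PPBP, PF4, GNG11 and ITGB5 were at least 2-fold lower, ITGA2B was 2.15-fold higher, 3 genes were within 2-fold and 2 under 1 CPM, with a median of -0.87. The background there was 10.5% lower and 10.6% higher of 17055 genes. With upper quartile scaling the split in the responder libraries was 4 lower and 0 higher. These comparisons share libraries with those of response, and the difference between the 2 time courses was not tested.

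The mix of transcripts within the set also varied between libraries. Per kilobase of the coding length given in the tables, which may leave out untranslated parts, PPBP was the most abundant of the 10 in every library, at 6.86 to 85.8 CPM per kilobase, followed by PF4 at 1.94 to 25.2 and TUBB1 at 1.67 to 17 CPM per kilobase. Relative to PPBP per kilobase, PF4 kept between -2.21 and -1.62 and TUBB1 between -2.92 and -2.04 on the log2 scale, so these 3 genes stayed close to a common proportion. ITGA2B did not: relative to PPBP it stood at -5.93 (responder) and -12.85 (non-responder) before therapy and at -3.67 and -4.53 after it. GNG11 stood at -3.14 and -3.18 before therapy and at -4.91 and -4.77 after therapy, a proportion that separated the times rather than the response. As a share of the counts of the set, PPBP made up 29.3% and 42.7% before and 23.2% and 30.4% after therapy, responder first, and TUBB1 between 23.9% and 29.4%.

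A further 65 genes known from platelets and megakaryocytes, picked for their function but with earlier results of these data known, were all found in the tables. After therapy, 42 of the 65 were at least 2-fold lower in the responder library (13.9% of all genes that reached 1 CPM), 8 within 2-fold and 13 under 1 CPM. The 2 that were higher were F2R, a thrombin receptor that T cells also express, and TBXA2R, the thromboxane receptor. Of the 65, 52 reached 1 CPM in this pair. Some, such as GATA1 and P2RY12, did so in the non-responder library alone, and the filter then favours a lower call. Before therapy, 14 were at least 2-fold higher and 11 lower in the responder, against 15.8% and 14% of all genes. The median log2 ratio was -2.93 after therapy over 63 genes with a count, or -2.78 with zeros set at the floor. Before therapy it was 0.33 over 59 genes, or 0.20 with zeros at the floor, and -0.46 over the 41 genes with at least 1 CPM, so its sign depended on the least abundant genes. In the non-responder libraries 35 were higher and 2 (GP5 and MEIS1) lower after therapy, against 19.1% and 14.1% of all genes. In the responder libraries 10 were higher and 11 lower, against 10.6% and 10.5%.

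Among secreted proteins of this wider list, F13A1, a factor XIII chain, measured 7.89 CPM (responder) and 13.9 CPM (non-responder) before therapy, and 21.3 and 126 CPM after therapy. THBS1, the adhesive granule protein thrombospondin 1, stood at 10.8 against 2.76 CPM and 8.30 against 114 CPM. SPARC, a matrix-binding granule protein, was the exception at 66.0 against 32.0 CPM and later 8.34 against 34.6 CPM, so its highest level was in the responder library before therapy, the one with epithelial markers. CLU, the chaperone clusterin, stood at 16.5 against 29.8 CPM and 11.3 against 41.5 CPM. F13A1, THBS1 and CLU were highest in the non-responder library after therapy. F13A1, and below TBXAS1, PDE5A, RGS18, PRKAR2B and NFE2, ranked the 4 libraries as the monocyte marker LYZ did, unlike PPBP. CLU, and below CAVIN2 and SH3BGRL2, ranked them as PPBP did. The part of monocyte RNA in these values was not tested.

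Among surface receptors, CD36, the scavenger receptor that monocytes also carry, stood at 2.07 against 0.0307 CPM before therapy and later 24.8 against 203 CPM. F2R stood at 105 against 83.0 CPM and 252 against 79.0 CPM, TSPAN33, a tetraspanin, at 3.98 against 5.64 CPM and 4.79 against 14.0 CPM, and CD9, another tetraspanin, at 10.5 against 1.72 CPM and 3.04 against 5.10 CPM. Of the 20 receptor genes, 10 were at least 2-fold lower and 2 higher in the responder after therapy, where 13.9% of all genes were lower and 7.99% higher. F2RL3, a second thrombin receptor, had no count in any library.

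Genes of the cytoskeleton and membrane included CAVIN2, a caveolar coat protein listed as SDPR, at 2.38 against 3.62 CPM before therapy and later 1.40 against 29.2 CPM. SH3BGRL2 stood at 3.25 against 5.44 CPM and 3.23 against 11.1 CPM, and C2orf88 at 0.516 against 7.97 CPM and 0.934 against 6.44 CPM. PARVB, a partner of integrin-linked kinase, differed little, at 4.14 against 3.80 CPM and 3.21 against 4.27 CPM. Of these 11 genes, 8 were at least 2-fold lower in the responder after therapy (13.9% of all genes) and 0 higher (7.99%).

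Of the 12 signalling and lipid enzyme genes, 8 were at least 2-fold lower in the responder after therapy and 0 higher, beside the same 13.9% and 7.99% of all genes. TBXAS1, thromboxane synthase, stood at 4.46 against 6.13 CPM before therapy and later 12.1 against 76.9 CPM, RGS18, a G protein regulator, at 2.56 against 3.68 CPM and 4.47 against 37.0 CPM, and PRKAR2B, a regulatory subunit of protein kinase A, at 0.564 against 1.84 CPM and 2.40 against 22.3 CPM. PDE5A, the cyclic GMP phosphodiesterase, lay between 10.3 and 20.3 CPM in all 4 libraries.

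Among transcription factors of the megakaryocyte line, NFE2, which drives platelet release, stood at 2.28 against 4.92 CPM before therapy and later 7.12 against 27.3 CPM, and MEF2C at 1.29 against 0.828 CPM and 7.31 against 39.4 CPM. ZFPM1, the GATA1 partner, lay between 2.58 and 4.07 CPM, and MEIS1 was highest in the non-responder library before therapy, with 98 counts, against 4 to 74 counts elsewhere. Of the 8 factors, 5 were at least 2-fold lower in the responder after therapy and 0 higher, where all genes gave 13.9% and 7.99%.

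**Figure D3:**
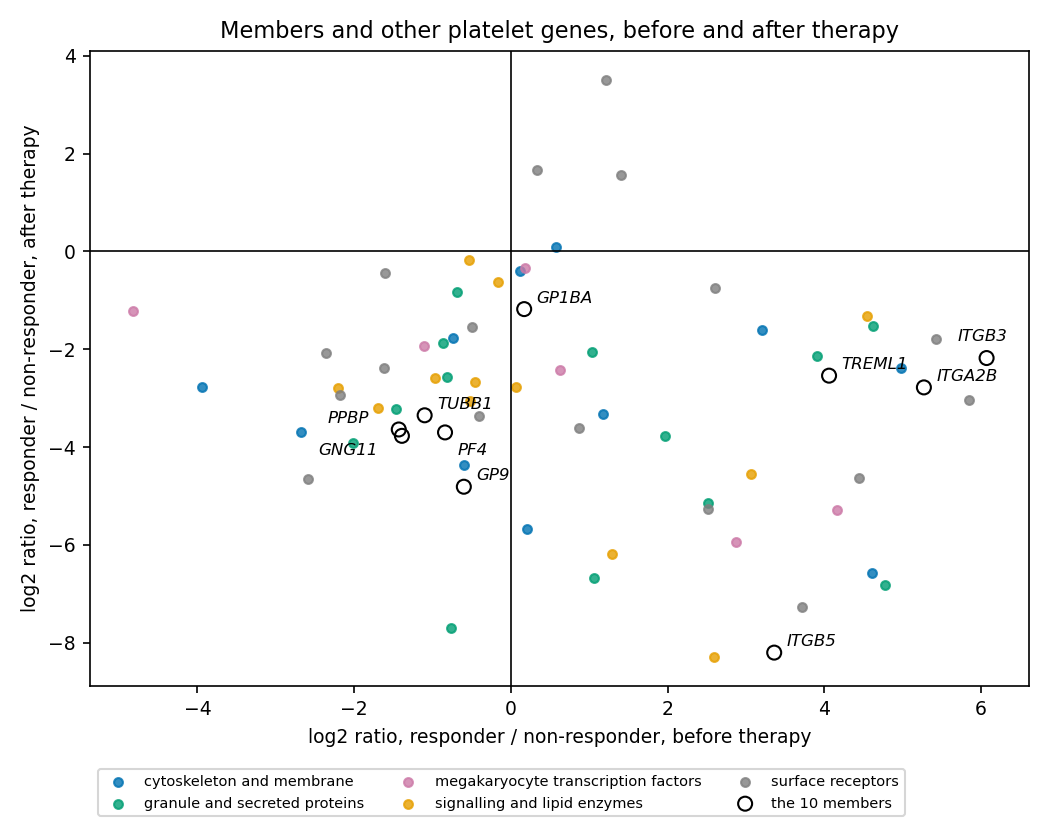
Log2 ratio of responder to non-responder before therapy (horizontal axis) and after therapy (vertical axis) for the 10 genes (open circles, named) and 59 other platelet genes with a count in each pair (dots, coloured by role), with zeros set at the floor of 3 counts. Of the 59 dots, 55 lie below 0 after therapy, of which 26 lie left and 29 right of 0 before therapy. The like shares over all genes were not counted.

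A list of 9 genes that platelets share with T cells did not follow the set. The chemokine CCL5 lay between 1360 and 2760 CPM, BIN2 between 762 and 962 CPM, the integrin activator TLN1 between 486 and 854 CPM and SRGN, the granule proteoglycan serglycin, between 262 and 638 CPM. None of the 9 was at least 2-fold apart between responder and non-responder at either time.

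The test across all genes, edgeR's quasi-likelihood test in an additive model of response and time, called 0 of the 24113 genes it tested for response and 0 for time at an adjusted p under 0.05, 0% of genes. Of the 65 other platelet genes, 56 entered the fit and 0 were called. The only residual of this fit is the change in the response ratio between the times. A gene whose ratio changed with time is thus counted as spread, and the 0 calls cannot tell whether such genes differ. At an unadjusted p under 0.05 the fit gave 2119 genes for response and 2732 for time, among them 12 and 6 of the other platelet genes. DESeq2 on the same design called 903 of 18970 genes given an adjusted p for response, 425 higher and 478 lower in the responder libraries. Of the 49 other platelet genes given one, 8 were called, all lower: C2orf88, MPIG6B (listed as C6orf25), CLU, CTDSPL, F13A1, GP1BB, NFE2 and PRKAR2B. For time it called 1509 of 20373 genes, 1071 higher and 438 lower after therapy. Among the 53 other platelet genes given an adjusted p for time, 10 were called, all 10 higher. They were CD36, CLEC1B, F13A1, F5, MEF2C, NFE2, PRKAR2B, PTGS1, RGS18 and TBXAS1. All but CLEC1B and RGS18 were also at least 2-fold higher after therapy in the responder libraries. Of the set itself, PPBP, PF4, GNG11 and ITGB5 were at least 2-fold lower in that pair, and ITGA2B was higher. The linear model limma-voom called 0 genes for response and 2 for time, and 0 of the other platelet genes for either.

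Markers of other blood cells moved with the platelet genes in some pairs and not in others. The 15 monocyte and neutrophil markers had a summed level of 143 CPM (responder) and 197 CPM (non-responder) before therapy and of 1860 and 8760 CPM after it, led by LYZ, lysozyme, at 8.25, 35.1, 791 and 3630 CPM in the same order. S100A8 stood at 25, 33.6, 267 and 1370 CPM, and S100A9 at 33.7, 40.4, 336 and 1720 CPM. In the pair after therapy, 12 of the 15 were at least 2-fold lower in the responder (13.9% of all genes), 1 was higher (7.99%), and the median log2 ratio of the 13 with at least 1 CPM was -2.24. After therapy the monocyte and neutrophil sum was 4.71-fold and the sum of the 10 platelet genes 9.53-fold higher in the non-responder. Between the responder libraries, however, the monocyte and neutrophil sum was 13-fold higher after therapy while the sum of the 10 was 1.75-fold higher before therapy. The sum of the 65 other platelet genes was 2.48-fold higher in the non-responder after therapy. Between the responder libraries it was 1.38-fold higher after therapy, where F2R made up 252 of 427 CPM. MPO and ELANE had counts in the non-responder library after therapy only, and CEACAM8 had 0 there. FCGR3B, an Fc receptor of mature neutrophils, was the 1 higher marker, at 35.7 against 17 CPM before therapy and 31.9 against 12.8 CPM after it, responder first.

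The 6 dendritic cell markers summed to 2.46, 3.11, 5 and 60 CPM in the same order of libraries, with CD1C at 13.3 CPM, FCER1A at 29.2 CPM and CLEC10A at 10.5 CPM in the last. Red cell markers were highest in the non-responder library before therapy, with a sum of 22.1 CPM over 8 genes against 2.86 to 5.42 CPM elsewhere, mostly HBB at 15.5 CPM, with HBA2 at 3.80 and HBA1 at 2.70 CPM. The defining red cell genes AHSP, SLC4A1, CA1 and ALAS2 were at or near 0 in all 4 libraries. B cell markers lay between 44.3 and 79.1 CPM in sum over 5 genes, with MS4A1 between 25 and 76.8 CPM. Endothelial markers, which matter because endothelium also makes GNG11, ITGB3 and ITGB5, summed to between 0.133 and 2.81 CPM over 5 genes. CLDN5 made up nearly all of that sum. It had 176 counts (2.70 CPM) in the non-responder library before therapy and 0.133 to 0.616 CPM elsewhere. GNG11 was also highest in that earlier library, as were the platelet genes GP1BB and C2orf88. TIE1 had at most 7 counts, and CDH5, TEK and EMCN had no count in any library. KIT stood at 6.04 CPM in the non-responder library after therapy and had no count elsewhere, while CPA3 and TPSAB1 of mast cells had none in any library. The part of other cells' RNA in the platelet values was not tested.

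**Figure D4:**
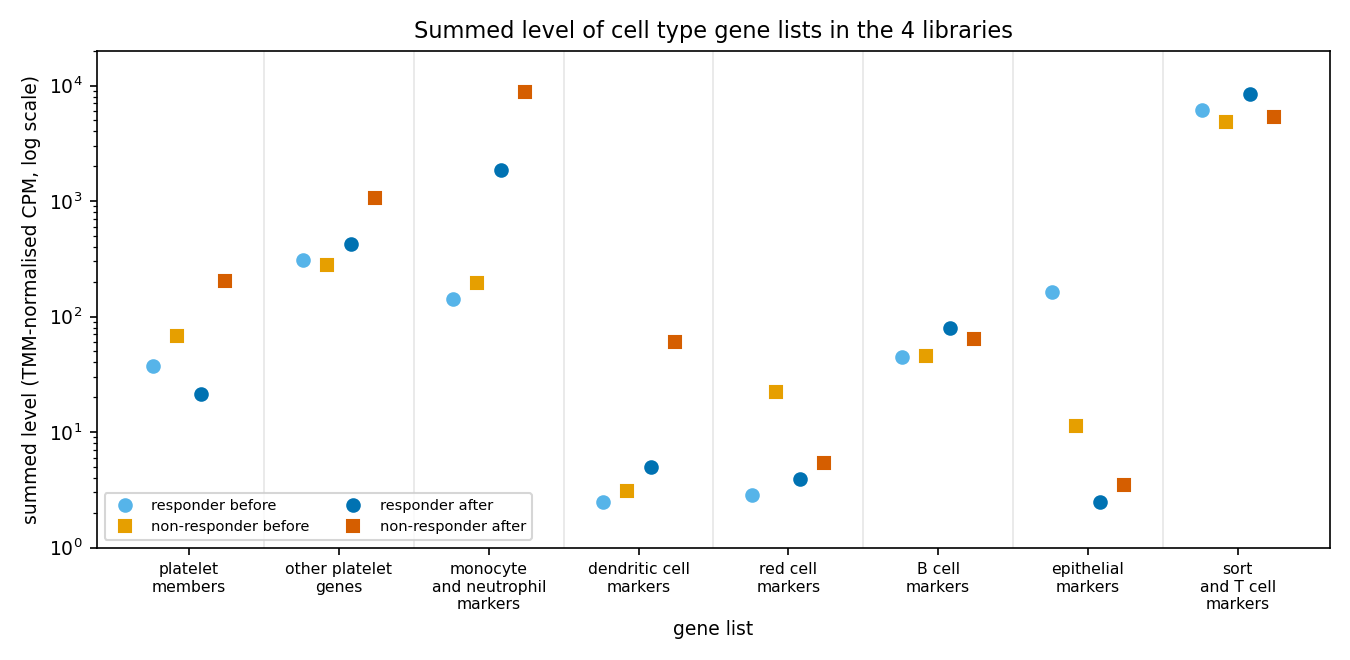
Summed level in TMM-normalised CPM (log scale) of 8 gene lists in the 4 libraries. The platelet sum is 202 CPM in the non-responder library after therapy and 21.2 to 68.3 CPM elsewhere, whereas the monocyte and neutrophil sum is higher in both libraries from after therapy.

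Genes with the pattern nearest to the set were sought over the 4 libraries by the distance between log2(CPM + 1) values centred on each gene's mean, relative to the median profile of the 10 genes. Among 13086 genes with at least 5 CPM and 50 counts in their highest library, the 10 nearest included NID1 (0.26), FGD2 (0.27), SOX4 (0.42), C1QB (0.44), LONRF1 (0.45), IER3 (0.46), LUCAT1 (0.50), CD1C (0.52) and KIAA0226L (0.52), with the distance in brackets, against a median distance of 2.18 over all 13086 genes. The profile is the median of the set itself, so closeness of its genes to it is partly built in. Of these, PF4 lay at 0.51, TUBB1 at 0.66, PPBP at 1.12, ITGB5 at 1.39 and TREML1 at 1.4. GNG11 lay at 1.93, ITGA2B at 2.20 and ITGB3 at 2.33. GP9 (0.48) and GP1BA (1.61) stayed under 5 CPM in every library and would not have entered the search. Of the 100 nearest genes, 6 were other platelet genes, NRGN, ABCC3, SDPR, GUCY1B3, C6orf25 and SH3BGRL2, out of 30 on that list with enough counts. Of the markers of other cells with enough counts, the 100 nearest held CD1C, 1 of 4 dendritic cell markers, KIT, the single mast cell and progenitor marker, and 0 of 12 monocyte and neutrophil markers. The median distance was 1.63 for the 30 platelet genes, 1.34 for the dendritic cell markers and 3.66 for the monocyte and neutrophil markers. Only 4 libraries define each pattern, so the distances describe these libraries alone.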

How the data were processed

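The libraries were SMARTer Ultra Low cDNA from 1 ng of RNA of sorted T cells, read as 101-base pairs, per the labels' protocols. The submitters' processing notes name bcl2fastq 1.8.4, TopHat2 and the build hg38. How reads were counted, the strand setting and the annotation are not stated (not given in the sources used here). The deposited tables hold raw counts per Ensembl gene and a coding length in bases, per the file headers. Of 64253 genes, 4146 on alternate contigs and 617 sex-informative genes were left out, while library totals kept all counts.

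The 10 genes and all gene lists were chosen with earlier results of these data known. Of 11 entries matching the 10 symbols, ITGB3 had 2, and the shorter was used. Ratios of 1 library to another used TMM scaling, a prior count of 0.5, exact conditional binomial intervals, and a floor of 3 counts for zeros. A 2-fold difference was counted with at least 1 CPM in either library. The fits used R 4.3.3, edgeR 4.0.16 (filterByExpr, response and time as additive terms, all 4 libraries, 1 residual degree of freedom, common biological coefficient of variation 0.66, Benjamini-Hochberg adjustment), DESeq2 1.42.0 and limma 3.58.1. The edgeR fit and the intervals were tested on simulated data. Nothing says that libraries are replicates, so p-values measure no more than the spread among these libraries, which may be technical. Amplified reads without molecular identifiers are not independent molecules. Named genes are the 10, CD8A, CD3E, ITGAL and PTPRC, the up to 4 most abundant of each role of the wider list and of the list shared with T cells, the up to 3 most abundant of each list of another cell type, and the 10 nearest in pattern. Genes named outside that rule, after their values were seen, are TBXA2R, GP5, F2RL3, GATA1, P2RY12, MPO, ELANE, CEACAM8, FCGR3B, CD34, CPA3, TPSAB1, CDH5, TEK, EMCN, AHSP, SLC4A1, CA1, ALAS2, ITGA2, CD4, those called by DESeq2 and those among the 100 nearest. A few genes that these rules name are not reported here. Alternatives were other scalings, a prior count of 2, other filters, other tools and other members.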

Additional observations from a re-analysis of the deposited data

Results flagged for a closer look

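Of the 10 genes, 4 went opposite ways before and after therapy, with counting intervals that exclude 0 on both sides. They were higher in the responder than in the non-responder before therapy and lower after it. The share of all genes that did so was not counted. The log2 ratio after therapy minus that before therapy was -8.06 for ITGA2B. With the library that had no count set at the floor of 3 counts, it was -8.25 for ITGB3, -6.60 for TREML1 and -11.56 for ITGB5. The ITGB3 value rests on a 0 in 1 of 2 overlapping entries of that symbol, and the second entry had log2 ratios of 1.75 before and -1.76 after therapy. Each group held 1 library, so these differences were not tested. Of 59 other platelet genes with a count in each pair, by sign alone and with no minimum level, 29 were higher in the responder before and lower after therapy, and 26 were lower at both times. The shares of all genes with these orders were not counted either. Among the 41 of the 65 with at least 1 CPM before therapy, 18 lay above 0 and 23 below 0 at that time.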

How the results depend on the processing

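No paired analysis was possible because each group held 1 library. Without ITGB5, the members' median log2 ratio was -3.35 for responder against non-responder after therapy and -0.60 for after against before in responders. With at least 5 CPM in place of 1, the members at least 2-fold higher in the responder before therapy numbered 0, and in the responder libraries 2 were lower and 0 higher after therapy. That last count was 0 with upper quartile scaling and 2 with no filter. Upper quartile scaling moved log2 ratios by -0.18 in the non-responder libraries across time and by -0.11 in the responder libraries, less for ITGB3, TREML1 and ITGB5 where a library had no count, and left 7 members higher in place of 8 in the non-responders. For the other platelet genes, at least 5 CPM gave 4 higher and 3 lower before therapy, 1 higher and 23 lower after therapy, 6 higher and 3 lower after therapy in responders, and 20 higher and 0 lower after therapy in non-responders. With no filter, 27 were higher in the responder before therapy and 24 lower after therapy in responders. Upper quartile scaling gave 4 lower after therapy in non-responders. Without the 10 that monocytes or granulocytes also make, an alternative chosen after seeing the data, the median after therapy was -3.22 and 3 were higher after therapy in responders. In place of 0 calls, DESeq2 called 903 genes for response and 1509 for time, limma-voom 2 for time, and edgeR without a filter 2 for time. Of 160 values of single members under other scalings or prior count, 156 stayed within their counting interval and none changed sign. Where it was not a smaller or larger set of genes, the cause was not tested. Counts under 100, as for GP1BA, GP9 and TREML1, limit the precision before therapy.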

Other observations

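Some genes of blood progenitors and of the megakaryocyte line had counts in the non-responder library after therapy and in no other. GATA1, a transcription factor of the megakaryocyte and red cell lines, had 181 counts (1.62 CPM) there, P2RY12, the platelet ADP receptor, 191 counts (1.71 CPM), KIT, the stem cell factor receptor, 676 counts (6.04 CPM), MPO, a granule enzyme of neutrophil precursors, 236 counts (2.11 CPM) and ELANE, neutrophil elastase, 34 counts (0.304 CPM). CD34, a progenitor marker, stood at 0.393 CPM there and 0.368 CPM in the non-responder library before therapy, with overlapping counting intervals. ITGA2, the collagen receptor chain, went the opposite way, with 0 counts in that library and 29 to 86 in the others. CD4, which monocytes also express, stood at 94.7 CPM there against 4.48 to 11.5 CPM in the other libraries.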
